A study of Mus musculus with 22 samples.

Results

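The 10 genes described here belong to the calcineurin and NFAT pathway: Dyrk1a, Rcan1, Rcan2, Rcan3, Ppp3ca, Ppp3cb, Ppp3r1, Nfatc2, Nfatc3 and Nfatc4. They were taken by symbol from a table of 55385 gene IDs, and each was found and had reads in every library. Dyrk1a and Rcan1 lie in the segment of mouse chromosome 16 (Mmu16) that Ts66Yah mice carry in 3 copies, and the other 8 lie on other chromosomes. For RNA-Seq of poly(A) RNA, the entorhinal cortex (EC) and the hippocampus (HIP) were taken from 11 male mice aged 5 to 6 months, 5 wt littermates and 6 Ts66Yah mice, so that each mouse gave 2 of the 22 libraries. Ts66Yah mice have an extra, freely segregating minichromosome holding Mmu16 from Mir155 to the telomere, made from the Ts65Dn minichromosome by removing its centromeric Mmu17 part with CRISPR/Cas9. The line goes back to a single founder, the wt mice have the normal 2 copies, and both genotypes share a mixed B6C3B background. The extra copy is carried on this minichromosome and not driven by a promoter or Cre.

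Calcineurin is a phosphatase switched on by calcium and calmodulin, built from a catalytic A subunit and a regulatory, calcium-binding B subunit. It removes phosphates from the NFATc transcription factors, which then enter the nucleus. DYRK1A is a kinase that phosphorylates NFATc proteins and so favours their export, and the RCAN proteins bind calcineurin and inhibit it. In neurons the phosphatase is known for its part in synaptic depression and in the recycling of synaptic vesicles. In humans DYRK1A and RCAN1 lie on chromosome 21 (Hsa21).

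All positions are in GRCm38, and all 10 genes are annotated as protein-coding. Dyrk1a (ENSMUSG00000022897) spans chr16:94570010-94695517 on the plus strand and Rcan1 (ENSMUSG00000022951) chr16:92391953-92470867 on the minus strand. Of the Rcan1 paralogues, Rcan2 (ENSMUSG00000039601) lies at chr17:43801351-44039516 and Rcan3 (ENSMUSG00000059713) at chr4:135412308-135433853. The catalytic subunit genes are Ppp3ca (ENSMUSG00000028161, chr3:136670124-136937727) and Ppp3cb (ENSMUSG00000021816, chr14:20499364-20546573), and the regulatory subunit gene is Ppp3r1 (ENSMUSG00000033953, chr11:17159263-17200375). The transcription factor genes are Nfatc2 (ENSMUSG00000027544, chr2:168476410-168601657), Nfatc3 (ENSMUSG00000031902, chr8:106058840-106130537) and Nfatc4 (ENSMUSG00000023411, chr14:55823144-55833943). Ppp3r1 shares 462 exon bases with Wdr92 on the same strand, Rcan3 shares 44 with Mir700 or Gm15979 on the same strand, and Nfatc3 shares 219 with Esrp2 on the opposite strand, so part of their reads may have been split or dropped in counting. Dyrk1a overlaps Gm15971 and Rcan1 overlaps Gm46555, in both cases without a shared exon base.

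Rcan1 is read from alternative starts, and its internal start is known as a target of NFAT itself. The counts are per gene and pool all starts, so the values below cannot be assigned to an isoform. The 250 bases upstream of the 2 RefSeq starts (GRCm38.p6) are shown to let the starts be compared for the NFAT core letters GGAAA, searched on both strands, and written in capitals as GGAAA or as TTTCC where the match is on the other strand. The upstream start has the window chr16:92466170-92466419 and the internal start chr16:92400079-92400328, both on the minus strand and written in the direction of transcription. Both windows lie within the annotated span of the gene.
Rcan1, upstream start: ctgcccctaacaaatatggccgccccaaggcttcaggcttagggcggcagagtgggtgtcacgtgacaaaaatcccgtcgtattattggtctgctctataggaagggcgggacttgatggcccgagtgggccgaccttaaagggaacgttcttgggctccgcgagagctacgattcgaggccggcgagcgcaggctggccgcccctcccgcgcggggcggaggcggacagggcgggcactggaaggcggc
Rcan1, internal start: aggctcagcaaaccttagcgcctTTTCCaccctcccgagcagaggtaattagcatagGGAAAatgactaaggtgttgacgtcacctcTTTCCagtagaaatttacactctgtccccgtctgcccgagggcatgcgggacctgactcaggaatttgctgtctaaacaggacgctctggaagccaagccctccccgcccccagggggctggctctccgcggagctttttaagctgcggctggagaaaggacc

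The window of the upstream start held 0 matches and that of the internal start 3. At least 3 matches stood in 6.39% of the 32851 RefSeq windows of the same 250 bases, and at least 1 in 55.6%. Dyrk1a has 3 RefSeq starts with 0, 1 and 2 matches in their windows. RefSeq windows were found for 9 of the 10 genes, all but Ppp3ca. Windows with 3 matches were also found for Ppp3cb, Nfatc2 and Nfatc4, so this count is not particular to Rcan1. A match is a description of the letters only.

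The reads counted to genes came to between 25900479 and 50105778 per library, with a median of 34666782. At this depth the least expressed gene, Nfatc4, had 22 to 88 reads per library, Nfatc2 had 153 to 625 and Nfatc3 288 to 799, whereas Ppp3ca had 34403 to 100826. All 10 genes passed the filter on low counts in every comparison. Levels below are in CPM, counts relative to the total count of their library, scaled by TMM, which corrects for differences in library composition. Levels of different genes are compared per kilobase (kb) of exon, where the length is the union of all annotated exons of a gene. Since whole tissue was used, fewer cells of a type and less RNA per cell cannot be told apart. As for the tissue labels, 5 of 5 hippocampal markers were lower and 4 of 5 cortical markers higher in the EC than in the HIP of wt mice.

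Per kb of exon, the genes differed by over 3 orders of magnitude. In wt HIP the regulatory subunit Ppp3r1 stood highest, at a mean level of 347 CPM per kb, followed by the catalytic subunits Ppp3ca at 200.5 and Ppp3cb at 54.4. The inhibitors came next, with Rcan2 at 39.7, Rcan1 at 17.6 and Rcan3 at 6.15 CPM per kb, and the kinase Dyrk1a stood between the last 2 at 10.7. The transcription factors were lowest, with Nfatc3 at 1.31, Nfatc2 at 1.19 and Nfatc4 at 0.286 CPM per kb. Neighbours in this order did not overlap in range over the 5 libraries, except Nfatc3 and Nfatc2. These ranges do not measure an error in exon length. Without the division by length, Ppp3ca (9981 bases) stood above Ppp3r1 (3228 bases), at 2001 against 1121 CPM in wt HIP. In wt EC the order of Rcan2 (57.9 CPM per kb) and Ppp3cb (57.8) could not be told from their ranges, and the same held for Dyrk1a (11.4) and Rcan3 (8.94). Among the NFAT family the most abundant message was that of Nfat5, the tonicity-responsive member that calcineurin does not control, with 66.7% ± 2.29 (SD, n = 5) of the summed level per kb in wt HIP.

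**Figure D1:**
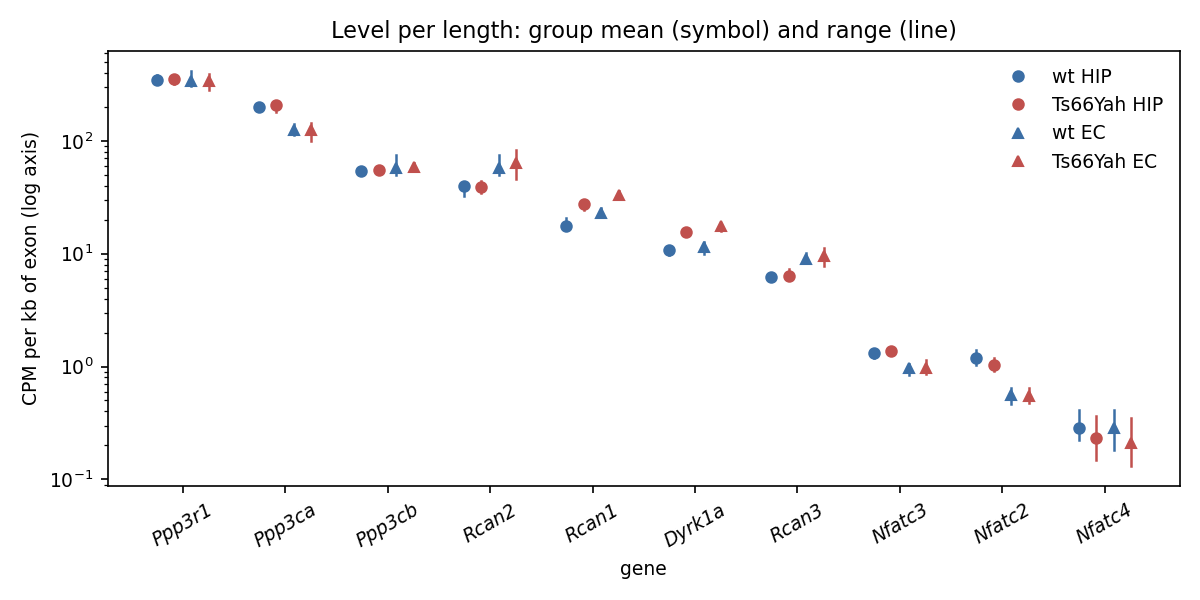
Level per length (CPM per kb of exon, log axis) of the 10 genes in the 4 groups; symbols are group means and lines run from the lowest to the highest library (n = 5 wt, n = 6 Ts66Yah). Ppp3r1 (347 CPM per kb in wt HIP) is at the top and Nfatc4 (0.286) at the bottom, and for Dyrk1a and Rcan1 the Ts66Yah ranges lie above the wt ranges in both regions.

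The first question was which of these genes differed between Ts66Yah and wt mice. Dyrk1a and Rcan1 were higher in Ts66Yah mice in both regions, by about 1.5-fold, and none of the other 8 passed the test in either region. In the HIP 0.591% of the 18452 genes tested were called at an adjusted p under 0.05, and 0.439% were called as higher. In the EC 0.283% of 17658 were called and 0.272% as higher. Against these shares stand 2 of 10 members in each region, which are the triplicated ones.

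Dyrk1a, in the HIP of the 5 wt mice, was at 93.8, 89.4, 81.0, 90.1 and 86.6 CPM, and in the 6 Ts66Yah mice it ranged from 122.6 to 131.5 with a median of 129.8. The genotypes did not overlap, and the lowest Ts66Yah library stood well above the highest wt one. Mean levels were 88.2 ± 4.77 CPM for wt (SD, n = 5) against 128.5 ± 3.49 for Ts66Yah mice (SD, n = 6). The log2 fold change came to 0.54, with a 95% interval from 0.45 to 0.64 (SE 0.04, edgeR adjusted p = 1.22e-05). The 5 wt EC libraries were at 92.9, 96.5, 94.2, 104 and 81.4 CPM, and the Ts66Yah libraries ran from 131.6 to 151.9 with a median of 144.4. There too every Ts66Yah library was above every wt library. The log2 fold change was 0.61 (SE 0.07, 95% interval 0.47 to 0.75, edgeR adjusted p = 0.000412).

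Rcan1 was at 49.5, 50.5, 63.5, 56.9 and 51.7 CPM in the wt HIP, and between 75.8 and 89.4 with a median of 84.8 in the Ts66Yah HIP. The third wt mouse was the highest of its group and the fourth Ts66Yah mouse the lowest of its own, and the genotypes did not overlap. Mean levels were 54.4 ± 5.83 CPM for wt (SD, n = 5) against 84.4 ± 4.98 for Ts66Yah mice (SD, n = 6). This gave a log2 fold change of 0.63, with a 95% interval from 0.49 to 0.78 (SE 0.07, edgeR adjusted p = 0.000166). The wt EC libraries were at 64.6, 69.1, 74.4, 77.9 and 67.8 CPM, and the Ts66Yah libraries ran from 96.9 to 110.9 with a median of 102.4. All 6 lay above the 5 wt libraries. The log2 fold change was 0.54 (SE 0.06, 95% interval 0.41 to 0.67, edgeR adjusted p = 0.000585). Over all tested genes, such a separation with Ts66Yah higher was seen for 1.06% (HIP) and 0.549% (EC).

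**Figure D2:**
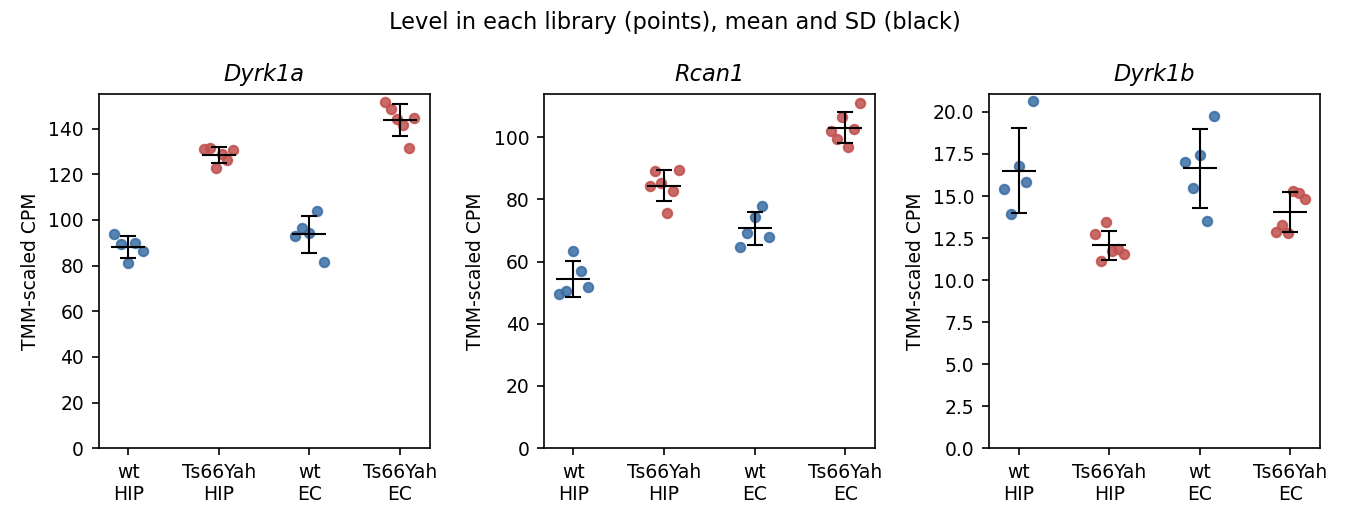
Level in TMM-scaled CPM of Dyrk1a, Rcan1 and Dyrk1b in each library (points; blue wt, red Ts66Yah), with the group mean and SD in black. For Dyrk1a and Rcan1 all 6 Ts66Yah points lie above all 5 wt points in both regions, and for Dyrk1b all 6 lie below in the HIP but overlap in the EC.

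Whether these 2 genes departed from the 1.5-fold level that 3 copies against 2 would give was tested against that value instead of against no change. Dyrk1a was 1.46-fold higher in the HIP (95% interval 1.37 to 1.55) and 1.53-fold higher in the EC (1.39 to 1.69). Rcan1 was 1.55-fold higher in the HIP (1.40 to 1.71) and 1.46-fold higher in the EC (1.33 to 1.59). No departure was called, with edgeR p adjusted over the tested genes of the segment of 0.735 and 0.880 for Dyrk1a and of 0.761 and 0.872 for Rcan1 in the HIP and the EC. In the HIP 5.94% of the 101 tested genes of the segment departed, against 1.08% of 93 for the EC. The intervals of Dyrk1a and Rcan1 all contain 1.5, and a departure that is small against their width may have gone undetected.

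The genotype effect on a gene can also differ between the regions. The effect on Dyrk1a was larger in the EC by 0.07 on the log2 scale (95% interval -0.08 to 0.23), and that on Rcan1 went the other way, by -0.09 (95% interval -0.28 to 0.10). Neither was called. In this test 0 of 10 members and 0 of 19074 genes (0%) were called by edgeR, with 388 genes at an unadjusted p under 0.05, and DESeq2 and limma voom called 0 as well. The libraries of both regions come from the same mice, which the main test did not model.

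Among the inhibitors of calcineurin, the paralogues of Rcan1 stayed under the threshold. Rcan2, which is broadly made in brain, stood in the HIP at 173.7 ± 19.0 CPM for wt (SD, n = 5) against 168.9 ± 16.4 for Ts66Yah mice (SD, n = 6), with a 95% interval of the log2 fold change from -0.21 to 0.13. In the EC it was at 253.2 ± 42.0 CPM in wt and 280.3 ± 56.8 in Ts66Yah, and the interval, from -0.15 to 0.44, was wide, with single mice ranging from 198.5 to 363.6 CPM. Rcan3 had intervals of -0.08 to 0.19 (HIP) and -0.12 to 0.32 (EC). For both genes the libraries of the 2 genotypes overlapped in both regions.

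No subunit of calcineurin passed the test. Ppp3cb, a catalytic subunit, stood in the HIP at 479.0 ± 20.0 CPM for wt (SD, n = 5) against 482.2 ± 7.73 for Ts66Yah mice (SD, n = 6). Its log2 fold change there had a 95% interval of -0.07 to 0.09, that is from 0.950-fold to 1.07-fold. Ppp3ca, the other catalytic subunit, was at 2001 ± 66.1 CPM in wt HIP and 2055 ± 138 in Ts66Yah HIP (interval -0.08 to 0.15), and Ppp3r1, the regulatory subunit, at 1121 ± 67.4 and 1147 ± 72.0 CPM (interval -0.09 to 0.15). In the EC the intervals were wider, at -0.21 to 0.17 for Ppp3ca, -0.19 to 0.21 for Ppp3cb and -0.19 to 0.21 for Ppp3r1. None contained the log2 value of a 1.5-fold change.

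The transcription factors had the lowest counts. Nfatc2 was at 13.0, 11.7, 12.3, 11.0 and 14.9 CPM in wt HIP and between 9.67 and 12.6 with a median of 10.5 in Ts66Yah HIP. The genotypes overlapped, and the log2 fold change of -0.21 (SE 0.10) had an edgeR p of 0.0454 before and 0.407 after adjustment. Of the 18452 genes tested in the HIP, 2188 had an unadjusted edgeR p under 0.05. In the EC Nfatc2 had a log2 fold change of -0.02 (95% interval -0.28 to 0.23). Nfatc3 had intervals of -0.05 to 0.22 (HIP) and -0.22 to 0.17 (EC). Nfatc4 had log2 fold changes of -0.30 (HIP) and -0.41 (EC), with intervals of -0.80 to 0.20 and -1.02 to 0.19, so that a level lower by 1.5-fold lies within both.

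**Figure D3:**
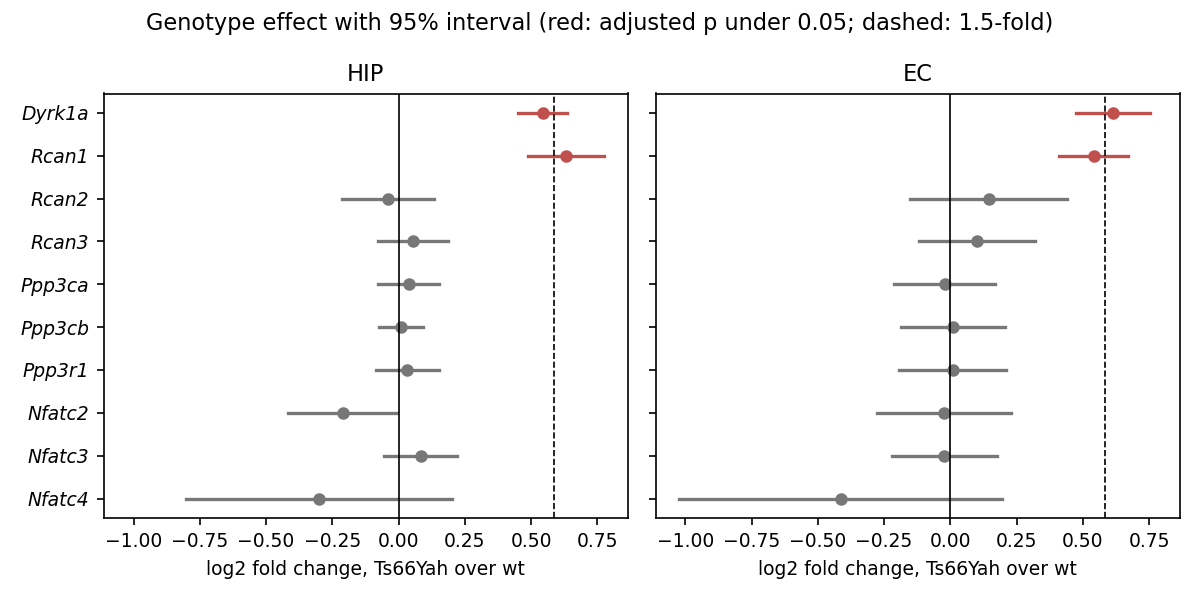
Log2 fold change of Ts66Yah over wt (points) with 95% interval (lines) for the 10 genes in the HIP and the EC; red marks an edgeR adjusted p under 0.05, the solid line is 0 and the dashed line a 1.5-fold change. Only Dyrk1a (0.54 and 0.61) and Rcan1 (0.63 and 0.54) are red, and both reach the dashed line, while the interval of Nfatc4 is the widest in each region.

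The levels per kb were also put in proportion to those of related genes. In the HIP Rcan1 made up 27.8% ± 2.54 of the summed level of the Rcan genes for wt (SD, n = 5) against 37.9% ± 2.20 for Ts66Yah mice (SD, n = 6). For the EC, the shares were 25.7% ± 2.97 and 31.5% ± 3.01. In relation to the catalytic subunits, its level per kb was 6.80 ± 0.758 per 100 of calcineurin A in wt HIP and 10.3 ± 0.417 in Ts66Yah HIP. In the EC the same quantity was 12.1 ± 0.643 in wt and 17.8 ± 1.46 in Ts66Yah mice. For this ratio the wt EC mice ranged from 11.2 to 13.0, above the 9.69 to 10.9 of the Ts66Yah HIP. Summed over all 3 inhibitors the ratio was 24.4 ± 1.86 in wt HIP, 27.3 ± 2.08 in Ts66Yah HIP, 47.2 ± 3.70 in wt EC and 56.7 ± 4.13 in Ts66Yah EC. These proportions are a description that depends on the exon lengths used, and messages are not proteins.

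**Figure D4:**
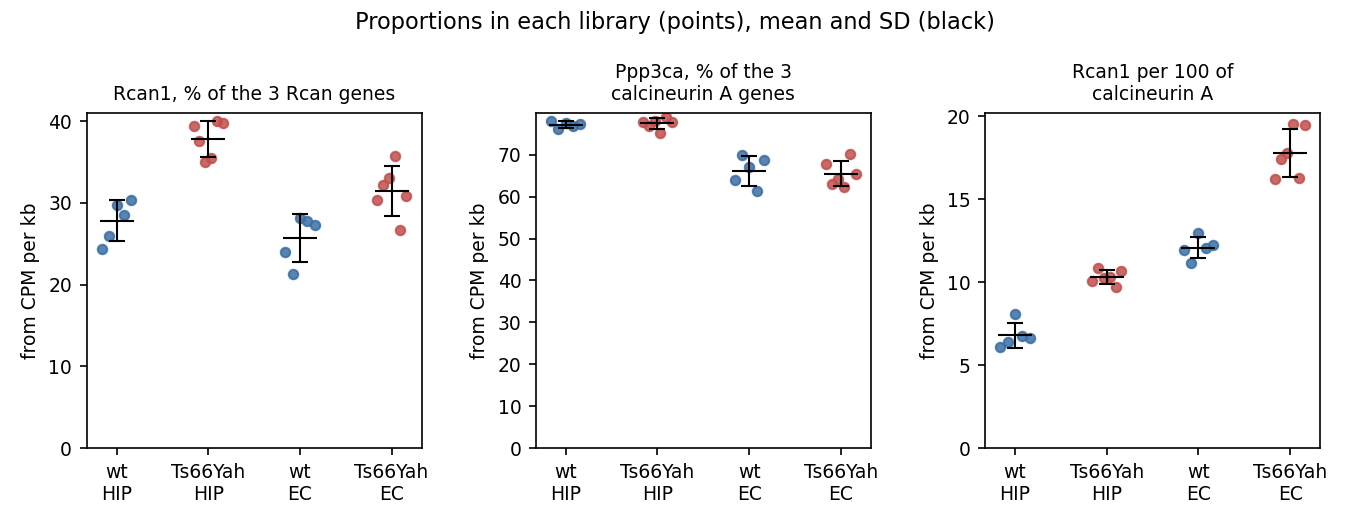
Proportions from levels per kb in each library (points; blue wt, red Ts66Yah), with the group mean and SD in black. Rcan1 is a higher share of the 3 Rcan genes in Ts66Yah mice (37.9% against 27.8% in the HIP), Ppp3ca as a share of the 3 calcineurin A genes differs between the regions (77.2% and 66.2% in wt) rather than the genotypes, and Rcan1 per 100 of calcineurin A differs with both.

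The other genes of the pathway were followed in lists. Of the calcineurin subunits, anchors and regulators 13 of 14 were tested and 0 passed in either region. Of the 14 genes of calcium entry and release and the 13 calcineurin substrates 0 passed as well. Over all tested genes only 0.591% (HIP) and 0.283% (EC) were called, so 0 calls in lists this short cannot show that the pathway is unchanged. Of 19 partners and substrates of DYRK1A, 3 were higher in both regions and 0 lower. They were Synj1, a phosphatase of vesicle recycling, with log2 fold changes of 0.69 (HIP) and 0.70 (EC), Itsn1, an endocytic scaffold, with 0.49 and 0.54, and App, the amyloid precursor, with 0.61 and 0.57. All 3 lie in the triplicated segment. Leaving aside the activity-regulated genes, the medians of the lists lay between -0.04 and 0.02 for the HIP and between -0.06 and 0.01 for the EC. Over all tested genes the medians were 0.00 and -0.0045.

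The NFAT members, kinases and carriers held the only call by genotype outside the segment among these lists. Dyrk1b, the closest relative of Dyrk1a and a kinase of the same family, was lower in Ts66Yah HIP. The wt libraries were at 15.4, 13.9, 16.8, 15.9 and 20.6 CPM, and the Ts66Yah libraries between 11.1 and 13.5 with a median of 11.8. The groups did not overlap, which over all genes held in this direction for 0.813%. The log2 fold change was -0.45 (SE 0.09, edgeR adjusted p = 0.0474), where 0.152% of genes were called as lower. The call was lost with limma voom (adjusted p = 0.0536), with the replicate block (0.150), with the block by range of animal numbers (0.0625), which drops 1 mouse, and in 10 of 11 fits with a single library removed (all but that of the second wt mouse), over which adjusted p ran from 0.0210 to 0.127. It was kept with DESeq2 (0.00108), all 22 libraries in one fit (0.0268), a filter at 1 CPM (0.0442) or none (0.0299) and RLE factors (0.0482), and over all of these the log2 fold change stayed between -0.51 and -0.36. In the EC the log2 fold change was -0.25 (SE 0.10, edgeR adjusted p = 0.722), and the genotypes overlapped. The difference between the regions was not called. Gsk3a and Gsk3b, kinases that act on NFATc after a first phosphorylation, had log2 fold changes of -0.09 and -0.03 (HIP) and of -0.06 and 0.00 (EC), with no call.

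Genes that neuronal activity switches on had positive log2 fold changes in 10 of 10 cases in the EC, with a median of 0.74, and in 8 of 10 in the HIP, with a median of 0.26. Over all tested genes the medians were -0.0045 (EC) and 0.00 (HIP). All 10 genes were measured in the same mice, so their directions are not separate observations. None of the 10 passed the test in either region. Fos, an immediate early transcription factor, ran from 5.50 to 24.0 CPM in wt EC and from 7.03 to 77.3 in Ts66Yah EC. Its log2 fold change in the EC was 1.44 (SE 0.60), with an edgeR adjusted p of 0.735. Egr2, a factor of the same kind, had 1.49 (SE 0.69, adjusted p = 0.797). The genotypes overlapped for both genes. None of the cell type markers tested was called by genotype in either region, where 0.591% (HIP) and 0.283% (EC) of all genes were. At such shares few calls would be found in any short list, so this does not show equal cell composition. Of the 5 choroid plexus markers, 3 were tested in the EC.

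The other comparison the design allows is between the regions. Its main tests treated the libraries of a mouse as independent, and a block by animal was run as an alternative, given at the end. In wt mice 3 of the 10 genes were higher in the EC and 3 lower, where 23.4% of genes were called as higher and 24.3% as lower, so that the share of members is close to that of genes in general. In Ts66Yah mice 4 were higher and 3 lower, against 26.4% and 27.5% of all genes. In wt mice the inhibitors were higher, and a catalytic subunit and 2 transcription factors were lower.

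All 3 Rcan genes were higher in the EC. Rcan2 had a log2 difference of 0.55 in wt (SE 0.11, edgeR adjusted p = 0.00118) and 0.73 in Ts66Yah mice (SE 0.12, adjusted p = 9.85e-05). Rcan3 had 0.54 (SE 0.06) and 0.58 (SE 0.10), and Rcan1 0.38 (SE 0.08) and 0.28 (SE 0.05). Each was higher in the EC than in the HIP of the same mouse in 11 of 11 mice, which held in one direction or the other for 41.7% of all genes. For Rcan2 the difference between the regions of a mouse ran from 0.26 to 1.27, and for Rcan1 only from 0.16 to 0.45.

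Of the calcineurin subunits, Ppp3ca was lower in the EC by a log2 difference of -0.67 in wt (SE 0.06, edgeR adjusted p = 2.68e-06) and -0.74 in Ts66Yah mice (SE 0.08, adjusted p = 2.35e-06). It was at 1941 to 2086 CPM in wt HIP and at 1117 to 1403 in wt EC, and all 11 mice had the same direction. Ppp3cb (0.09 in wt, 95% interval -0.11 to 0.29) and Ppp3r1 (-0.03, interval -0.22 to 0.15) were not called. Thereby the share of Ppp3ca in the summed level per kb of the catalytic subunit genes was 77.2% ± 0.762 (SD, n = 5) in wt HIP and 66.2% ± 3.58 in wt EC, and that of Ppp3cb 20.9% ± 0.657 and 30.3% ± 3.54. The third catalytic subunit gene, Ppp3cc, made up 1.91% and 3.48%.

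Nfatc2 was the member with the largest regional difference. It was at 11.0 to 14.9 CPM in wt HIP and 4.94 to 6.84 in wt EC, a log2 difference of -1.08 (SE 0.11, edgeR adjusted p = 5.59e-06), and in Ts66Yah mice the difference was -0.90 (SE 0.10). Nfatc3 was also lower in the EC, by -0.42 in wt (SE 0.09, adjusted p = 0.00143) and -0.53 in Ts66Yah mice. Both had this direction in all 11 mice. Nfatc4 did not pass (-0.0027 in wt, interval -0.50 to 0.50).

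Dyrk1a was the member whose call differed between the genotypes. Its log2 difference was 0.09 in wt (SE 0.07, 95% interval -0.06 to 0.24) and 0.16 in Ts66Yah mice (SE 0.04, edgeR adjusted p = 0.00481), and it was higher in the EC in 9 of 11 mice. The difference between these values is the interaction given above and was not called, so the gene is not shown to behave differently.

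**Figure D5:**
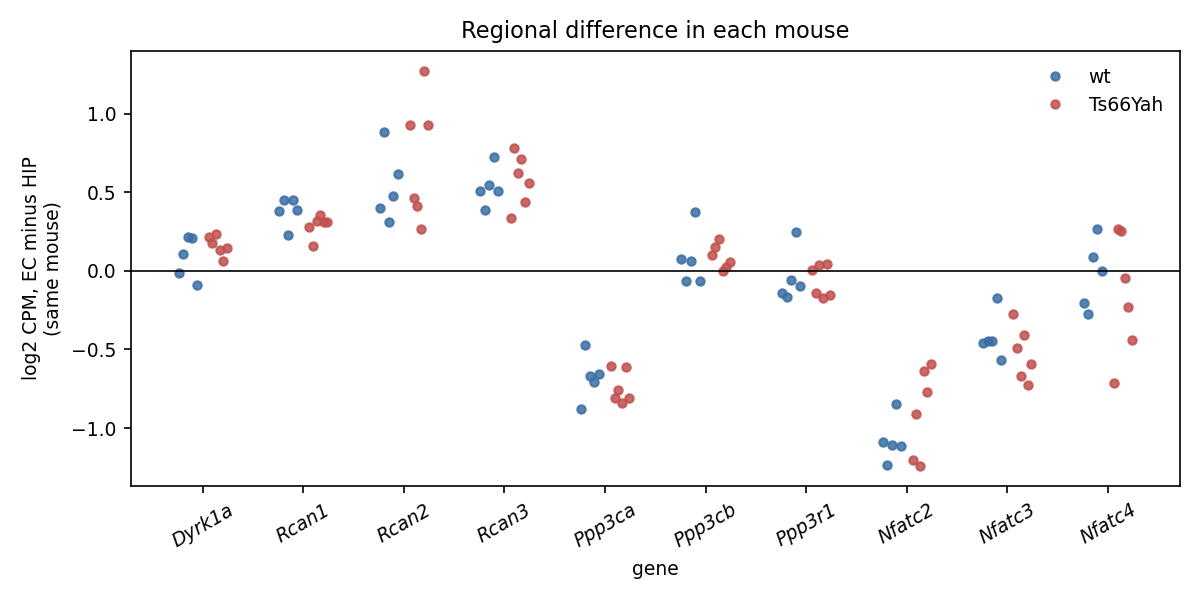
Log2 CPM in the EC minus that in the HIP of the same mouse, for each of the 11 mice (blue wt, red Ts66Yah), by gene. All points are above 0 for Rcan1, Rcan2 and Rcan3 and below 0 for Ppp3ca, Nfatc2 and Nfatc3. They lie on both sides of 0 for Dyrk1a, Ppp3cb, Ppp3r1 and Nfatc4.

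Markers of several cell types moved with the region in wt mice. Over all tested genes 23.4% were called as higher in the EC and 24.3% as lower. Oligodendrocyte markers were lower in the EC in 4 of 4 cases (summed level 5945 to 8543 CPM in wt HIP and 1160 to 2871 in wt EC), and those of the choroid plexus in 5 of 5 (110.0 to 3276 CPM and 9.56 to 41.5). Microglial markers were higher in 4 of 4 (202.1 to 275.9 and 257.7 to 320.4), those of neurons in 3 of 4 (5999 to 6426 and 6823 to 8490), erythroid ones in 4 of 5 (122.9 to 210.3 and 249.3 to 673.4) and striatal ones in 3 of 5 (18.4 to 22.4 and 82.5 to 168.6). Astrocyte markers were mixed, with 2 of 4 higher and 1 lower, as were those of excitatory neurons (1 of 3 and 1) and meninges (2 of 4 and 1). Endothelial markers were higher in 2 of 3, inhibitory neuron ones in 1 of 3, and thalamic ones lower in 2 of 3. In wt mice no defining marker was at 0 in a library. Their part in the regional differences of the 10 genes was not tested.

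The lists of the wider pathway were counted in the same way between the regions of wt mice, and their counts stand against the 23.4% of all tested genes called as higher and the 24.3% called as lower. Calcineurin subunits, anchors and regulators were higher in the EC in 8 of 13 tested cases and lower in 0. Among them were Akap5, which anchors calcineurin at synapses (0.79), and the calcineurin-homologous Chp2 (1.25). Chp2 was low in level, at 0.608 to 0.982 CPM in wt HIP and 1.25 to 2.37 in wt EC. Calcium entry and release genes were lower in 9 of 14 and higher in 3, with the ryanodine receptor Ryr3 at -2.41 and the store-operated channel gene Orai2 at -1.33. Among NFAT kinases and carriers 8 of 19 were higher and 3 lower, led by the scaffold Homer3 (-3.32), the catalytic subunit of protein kinase A Prkacb (1.28) and the kinase Lrrk2 (0.91).

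Of 13 calcineurin substrates 4 were higher and 3 lower in the EC, close to the 23.4% and 24.3% of genes in general. The transcription factor Mef2c had a log2 difference of 2.45, with 1099 ± 63.2 CPM in wt EC and 201.2 ± 22.1 in wt HIP (SD, n = 5). The AMPA receptor subunit gene Gria1 (-1.52) and the lysosomal regulator Tfeb (-1.22) were lower. Among 19 partners and substrates of DYRK1A 4 were higher and 7 lower, against the same 23.4% and 24.3%, with the transcription factor Foxo1 at -0.82, the repressor Rest at -0.75 and the splicing factor Srsf6 at -0.68. Beside those shares, activity-regulated genes were higher in 3 of 10 and lower in 1, with the largest differences for Egr2 (2.02), Fosb (0.78) and Ptgs2 (-0.65). The genes named here from the lists all had the same direction and passed the edgeR test in the Ts66Yah mice as well.

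How the members varied together within groups was described over the 22 libraries, after the mean of each group was removed. The 45 pairs of members had Pearson correlations between -0.70 and 0.71 with a median of 0.05. Dyrk1a and Rcan1, both on the extra segment, had a correlation of 0.00. Removing the group means also removed the genotype difference, so this value cannot speak to their shared copy number. The highest value was that of Dyrk1a with Ppp3cb, followed by Ppp3ca with Ppp3r1 (0.69), and the lowest that of Rcan2 with Nfatc4. Libraries from the same mouse and of similar depth or composition share such variation, so no test was attached.

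By the same measure, taken over the 14964 genes whose mean reached 1 CPM, those most like Dyrk1a were Dnajc6, which encodes auxilin (0.95), Cltc, the clathrin heavy chain (0.91), and Reps2 (0.91). Those most like Rcan1 were Epdr1 (0.80), Nmt1, an N-myristoyltransferase (0.77), and Pfn2, a profilin (0.75). None of these 6 lies in the triplicated segment, which held only 101 of the 18452 genes tested in the HIP. Removing the group means also removed the genotype difference, so this cannot speak to shared copy number.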

How the data were processed

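Counts per gene were deposited by the authors as whole numbers for 22 libraries; per the paper's methods and the labels, single-end reads of 50 bases were aligned with Hisat2 to GRCm38 with the Ensembl 99 annotation and counted with HTSeq-count. The strand setting and the treatment of reads with several matches are not given in the sources used here. The labels name a poly(A) kit and the methods also a ribosomal depletion kit. The authors' own tables of fold changes and p-values were not used. Gene IDs were paired with symbols through GENCODE vM21 (55144 of 55385 matched).

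The counts as deposited were tested with edgeR 4.0.16 (R 4.3.3; TMM factors, filterByExpr, quasi-likelihood fit) in each region by genotype, in each genotype by region and as an interaction over all libraries, with p-values adjusted by Benjamini-Hochberg over every gene tested and a threshold of 0.05. For the test against 1.5-fold, log 1.5 was added to the offsets of the Ts66Yah libraries. The scripts were tested on simulated counts. Alternatives were DESeq2 1.42.0, limma 3.58.1 (voom), RLE factors, 2 other filters, all 22 libraries in one fit, blocks and leaving out each library, or each mouse where both regions were fitted.

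All 10 members are described. Of the lists, genes called by genotype are named, and in the wt regional comparison the 3 called genes of each list with the largest absolute log2 fold change at a mean of at least 1 CPM, except 2 that are not reported here. Gsk3a, Gsk3b and Fos fall outside this rule and were picked once their values were known. Members, lists and the naming rule were chosen with earlier results of these data known. Likeness is Pearson's r of log2 CPM (prior count 2). Mice are separate animals, and HIP and EC libraries of a mouse are paired by animal: their deviations from group means correlated by 0.21 to 0.45 in 11 of 11 mice. Of the members' exons, those of Ppp3r1, Nfatc3 and Nfatc4 shared stretches of at least 50 bases at 95% identity or more with other genes. For Ppp3r1 this was the stretch of 462 bases shared with Wdr92. Reads from such stretches could be misassigned.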

Additional observations from a re-analysis of the deposited data

Results flagged for a closer look

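In 3 of the 40 sets of member and group, a single library stood far from the rest of its group. Chance alone sets about 1 in 20 such groups apart. Ppp3cb was at 653.7 CPM in the fourth wt EC library, where the group median was 482.9, and Ppp3r1 was at 1353 CPM in the same library, where the group median was 1023. That library was also the highest of wt EC for Dyrk1a (104.0 CPM), Rcan1 (77.9), Rcan3 (51.4) and Nfatc3 (12.4). It was not the highest for Rcan2, Ppp3ca, Nfatc2 and Nfatc4. The flags of Ppp3cb and Ppp3r1 are therefore not separate observations. Without that library the log2 fold change of Ts66Yah over wt in the EC was 0.12 for Ppp3cb and 0.10 for Ppp3r1, still not called (edgeR adjusted p = 0.586 and 0.741). Ppp3ca was at 1790 CPM in the fourth Ts66Yah HIP library, where the group median was 2101, and without that library its log2 fold change in the HIP was 0.07 (edgeR adjusted p = 0.585). No genotype effect on a member was called as different between the regions.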

How the results depend on the processing

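The counts of members called, and of triplicated members departing from 1.5-fold, did not change under any of the 112 alternatives run, and the genotype calls of Dyrk1a and Rcan1 and each member's regional calls held wherever those were tested. Counts over all genes moved more: against 109 in the HIP, DESeq2 called 357, the fit with the replicate block 61 and the block by range of animal numbers, which drops 1 mouse, 68, and against 50 in the EC, DESeq2 called 107 and the fit of all 22 libraries 79. The cause was not tested. Replicate numbers did not pair the genotypes (correlations -0.01 to 0.06 in the HIP and 0.02 to 0.18 in the EC, 2 of 10 pairs over 0.1), and with the replicate block Dyrk1a had log2 fold changes of 0.54 and 0.62 and Rcan1 0.62 and 0.52 in the HIP and the EC. The block by animal left the regional calls at 6 and 7.

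Reversals concerned values near 0 that were not called: by range of animal numbers Ppp3cb (-0.00922) and Ppp3r1 (-0.00695) in the EC, and in the difference between regions Ppp3cb with DESeq2 (-0.000529) and RLE factors (-0.000531). With each library left out in turn, genotype values in the EC ran from -0.0826 to 0.0320 for Nfatc2, -0.0773 to 0.0118 for Nfatc3, -0.0668 to 0.0337 for Ppp3ca, -0.0401 to 0.122 for Ppp3cb and -0.0313 to 0.105 for Ppp3r1, and in the HIP from -0.00496 to 0.0289 for Ppp3cb. With each mouse left out in turn, that is both of its libraries, the regional values in wt ran from -0.0649 to 0.0442 for Nfatc4 and -0.114 to 0.00506 for Ppp3r1, and the differences between regions from -0.213 to 0.000447 for Nfatc4, -0.0331 to 0.0900 for Ppp3cb and -0.0541 to 0.0614 for Ppp3r1. With single EC libraries left out, departures from 1.5-fold ran from -0.0182 to 0.0764 for Dyrk1a and from -0.0657 to 0.000390 for Rcan1. Nfatc4 had the fewest reads, 22 to 88 per library, and the part of depth in its wide intervals was not tested.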
